A study of Mus musculus with 9 samples.

Results

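The HoxD cluster genes were followed across 9 skeletal muscles of the mouse. The 8 genes Hoxd1, Hoxd3, Hoxd8, Hoxd9, Hoxd10, Hoxd11, Hoxd12 and Hoxd13 were taken by name out of the 22180 genes that a probe set of a single gene measured, and all 8 were found, each on 1 probe set. Each muscle was taken from 12-week-old C57BL/6J males, an inbred strain, with no transgene or treatment named, and its RNA was read on 1 whole-transcript GeneChip array. The muscles were the masseter and digastric of the head (n = 2), the trapezius, supraspinatus and triceps of the shoulder and forelimb (n = 3), and, in the hindlimb (n = 4), the gastrocnemius, soleus, tibialis anterior and rectus femoris. The regions follow general anatomy, since the labels name only the muscle, and the series title concerns positional memory, the idea that adult muscle keeps a molecular record of its place in the body. The sources used here do not say whether animals were pooled.

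Hox genes encode homeodomain transcription factors that give cells of the embryo a position along the body axis. In each of the Hox clusters the order of the genes on the chromosome follows the order in which they are used along the axis, so that genes at the 3' end of the HoxD cluster (Hoxd1, Hoxd3) act furthest forward and those at the 5' end (Hoxd13) furthest back. The 5' genes from Hoxd9 to Hoxd13 are used again in both the forelimb and the hindlimb bud, the middle of the cluster in the upper limb segments and its 5' end in the digits. Head muscles arise from cranial mesoderm, which lies in front of the domain of Hox expression.

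Sequence just upstream of the start sites is shown for Hoxd8, Hoxd9 and Hoxd10, because these genes of the middle of the cluster spanned the widest ranges over the muscles. The sequences are the 250 bases before the RefSeq start on GRCm38.p6, plus strand, 5' to 3', and capitals mark CG, the site of DNA methylation in mammals.
Hoxd8 (chr2:74704365-74704614): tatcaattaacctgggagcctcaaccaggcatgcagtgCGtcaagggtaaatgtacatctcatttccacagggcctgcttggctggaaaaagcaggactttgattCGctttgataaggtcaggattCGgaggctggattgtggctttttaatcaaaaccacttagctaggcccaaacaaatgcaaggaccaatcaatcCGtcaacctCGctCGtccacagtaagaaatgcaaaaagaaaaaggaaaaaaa
Hoxd9 (chr2:74697513-74697762): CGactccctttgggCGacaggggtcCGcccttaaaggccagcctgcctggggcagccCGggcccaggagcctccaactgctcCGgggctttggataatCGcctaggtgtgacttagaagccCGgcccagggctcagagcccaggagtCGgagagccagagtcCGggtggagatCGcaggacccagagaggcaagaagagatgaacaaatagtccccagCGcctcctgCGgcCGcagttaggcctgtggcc
Hoxd10 (chr2:74691641-74691890): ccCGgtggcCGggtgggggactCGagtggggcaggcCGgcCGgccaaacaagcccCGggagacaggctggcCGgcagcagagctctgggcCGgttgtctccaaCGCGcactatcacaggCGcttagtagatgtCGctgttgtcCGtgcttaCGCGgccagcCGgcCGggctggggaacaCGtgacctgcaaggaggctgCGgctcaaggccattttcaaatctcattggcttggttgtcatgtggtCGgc
The Hoxd8 window held 6 CG at 44.4% G and C, the Hoxd9 window 13 at 65.2% and the Hoxd10 window 20 at 65.6%. Over 32851 windows of the same length in the RefSeq table the median was 6 CG, so that Hoxd8 lay at percentile 53.7, Hoxd9 at 70.6 and Hoxd10 at 83.7. All 8 genes had an entry, with 9 windows in all because Hoxd11 had 2 starts, and these windows held from 2 to 31 CG. The letters CCAAT, searched on both strands, occurred in 6 of the 9 windows, those of Hoxd8 and Hoxd10 among them and that of Hoxd9 not, and in 33.8% of all windows. TATAAA occurred in 1 of the 9, that of Hoxd13, and in 12.4% of all windows, and TGATNNAT, a joint motif of Pbx and Hox proteins, in 1 of the 9, a Hoxd11 window, and in 7.7% of all.

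The arrays measured muscle throughout, with a mean of 12 muscle fibre genes between 11.47 and 12.23 on the log2 scale. The median of all probe sets lay between 3.34 and 3.44 per array, and values near or below it cannot be told from background here, since no detection calls were used. The array of triceps, that of rectus femoris and that of gastrocnemius had a narrower range of values, with an SD over probe sets of 1.919 to 1.957 against 2.033 to 2.077 on the other 6 arrays, and genes of the mean level of Hoxd9 had a median of 3.21 to 3.30 on them against 3.03 to 3.14 on the others. For the HoxD genes, values without these 3 arrays are given below where they move a result by over 1.5 times. The arrays of a region are different muscles, so the SD of a region measures the spread among its muscles. Each SE and p-value rests on this spread pooled over the 3 regions and moderated across genes by limma. The SD within regions, used below, is likewise pooled. It is made of differences between muscles, so it is no measure of error for 1 muscle. In all of these muscle, animal and array cannot be told apart, and the number of arrays limits the precision. In whole muscle, fewer cells that express a gene and less RNA per cell cannot be told apart.

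Across the 9 muscles, Hoxd8 and Hoxd10 were above the array median on every array, Hoxd9 and Hoxd11 on 3 arrays each, and Hoxd1, Hoxd3, Hoxd12 and Hoxd13 on none. Measured values of the genes of the middle of the cluster spanned most. Hoxd8 spanned 2.44 log2 units (5.44-fold) from masseter to trapezius, Hoxd10 1.30 (2.46-fold) and Hoxd9 1.91, and the other 5 genes from 0.54 to 0.97. No fold is given for Hoxd9, whose lower end lay below the array median, where a level cannot be told from background; its highest value, in gastrocnemius, was 0.78 above that median. The Hoxd8 and Hoxd9 ranges were larger than those of 98.0% of genes of like mean level, that is within 0.25 log2 units of the member's mean (1708 genes for Hoxd8 and 2148 for Hoxd9), and the Hoxd10 range larger than 85.1%. The level of a probe set also depends on its probes, so that levels were compared between muscles and not between genes.

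**Figure D1:**
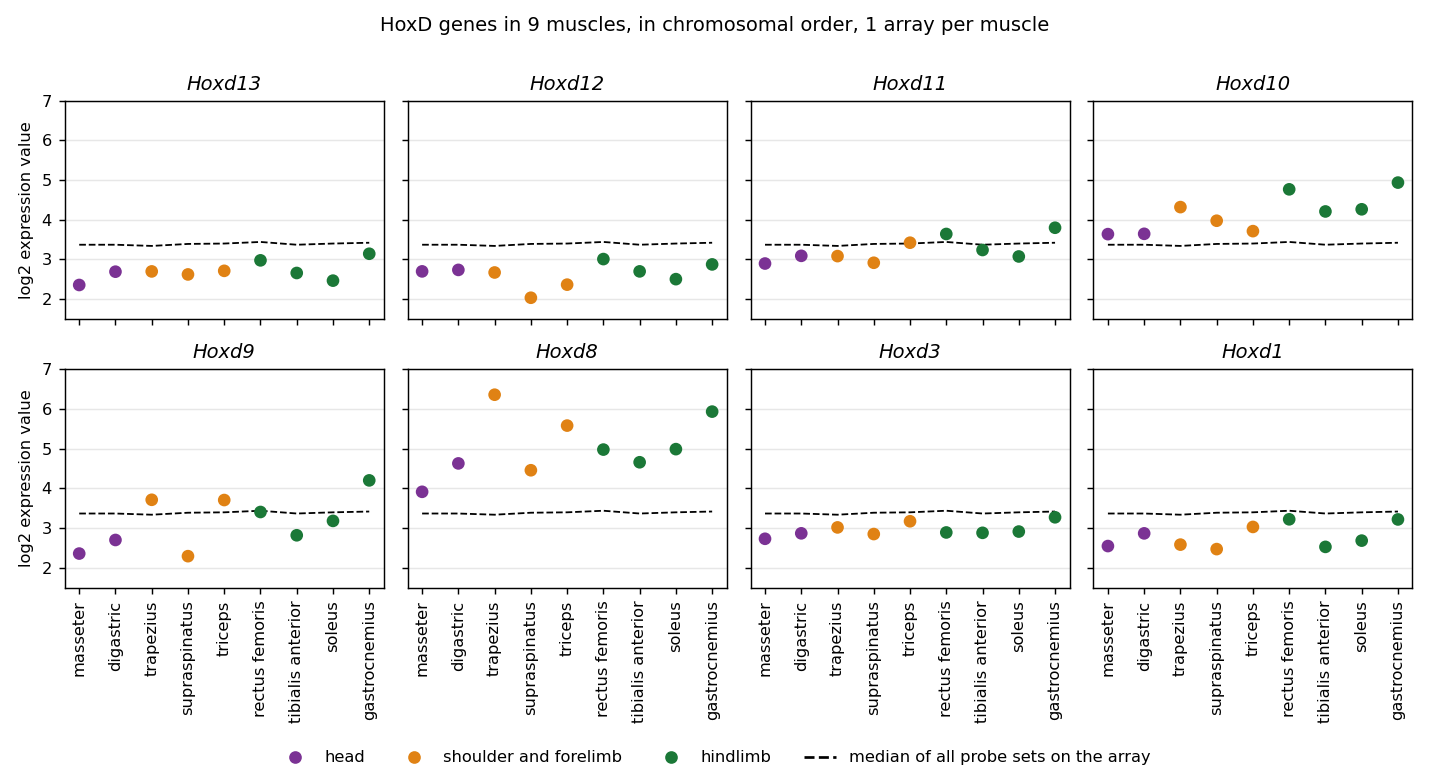
Log2 expression value (y axis) of each HoxD gene in 9 muscles (x axis), 1 point per array, in the order of the genes on chromosome 2 from Hoxd13 to Hoxd1, coloured by region; the dashed line joins the medians of all probe sets. Hoxd8 and Hoxd10 lie above the dashed line in all 9 muscles, Hoxd8 from 3.92 in masseter to 6.36 in trapezius, and Hoxd1, Hoxd3, Hoxd12 and Hoxd13 below it in all 9.

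Hoxd1, the most 3' gene of the cluster, lay below the array median by 0.20 to 0.92. Its log2 level was 2.55 in masseter and 2.87 in digastric, 2.59 in trapezius, 2.47 in supraspinatus and 3.03 in triceps, and 3.22 in rectus femoris, 2.53 in tibialis anterior, 2.69 in soleus and 3.22 in gastrocnemius. The highest 3 were the arrays of narrower range, and the regions overlapped. Hoxd3, which helps to pattern the first neck vertebrae, was at 2.73 in masseter and 2.87 in digastric, 3.02 in trapezius, 2.85 in supraspinatus and 3.17 in triceps, and 2.89 in rectus femoris, 2.88 in tibialis anterior, 2.92 in soleus and 3.27 in gastrocnemius. All these values were below the array median, by 0.15 to 0.63, and their range of 0.54 was larger than that of 16.8% of genes of like mean level. No gap between neighbours in the order of the muscles exceeded the SD within regions for Hoxd1 (largest gap 0.19, SD 0.32) or Hoxd3 (0.15 against 0.17).

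Hoxd8, a gene of the central part of the cluster, varied most and not in step with the body axis. It was at 3.92 in masseter and 4.63 in digastric, 6.36 in trapezius, 4.46 in supraspinatus and 5.58 in triceps, and 4.98 in rectus femoris, 4.66 in tibialis anterior, 4.99 in soleus and 5.94 in gastrocnemius. The trapezius and supraspinatus, both of the shoulder, thus stood at the highest and next to the lowest place. In rank among all genes of an array, Hoxd8 went from percentile 52.3 in masseter to 86.0 in trapezius, with 84.2 in gastrocnemius and 78.2 in triceps. The largest gap between neighbours, 0.59 between triceps and soleus, was smaller than the SD within regions of 0.71. With 1 array per muscle, whether neighbouring muscles differ could not be tested.

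Hoxd9, one of the genes used in the limb buds and the lower spine, was at 2.36 in masseter and 2.70 in digastric, 3.72 in trapezius, 2.30 in supraspinatus and 3.71 in triceps, and 3.41 in rectus femoris, 2.82 in tibialis anterior, 3.18 in soleus and 4.20 in gastrocnemius. Gastrocnemius, trapezius and triceps were the 3 muscles above the array median, by 0.78, 0.38 and 0.31. These were also the highest 3 for Hoxd8, in another order, and supraspinatus and masseter were the lowest pair for both genes. The largest gap, 0.49 between gastrocnemius and trapezius, was below the SD within regions of 0.64.

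Hoxd10, which helps to set motor neuron identity in the lumbar spinal cord and hindlimb patterning, had another order. It was at 3.64 in both masseter and digastric, at 4.32 in trapezius, 3.97 in supraspinatus and 3.71 in triceps, and at 4.76 in rectus femoris, 4.21 in tibialis anterior, 4.26 in soleus and 4.93 in gastrocnemius. The head arrays were lowest, and the 4 hindlimb arrays and trapezius stood above supraspinatus and triceps. Triceps, high for Hoxd8 and Hoxd9, was here the lowest muscle outside the head. The gap of 0.45 between rectus femoris and trapezius exceeded the SD within regions of 0.31, and rectus femoris and gastrocnemius, the arrays above that gap, were both of narrower range.

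Hoxd11, which together with its HoxA paralogue shapes the forearm and lower leg, was at 2.90 in masseter and 3.09 in digastric, 3.08 in trapezius, 2.92 in supraspinatus and 3.42 in triceps, and 3.64 in rectus femoris, 3.24 in tibialis anterior, 3.07 in soleus and 3.80 in gastrocnemius. It was above the array median in gastrocnemius (by 0.37), rectus femoris (0.20) and triceps (0.02), the arrays of narrower range. Hoxd12, a gene of the late limb bud, was at 2.70 in masseter and 2.74 in digastric, 2.67 in trapezius, 2.04 in supraspinatus and 2.37 in triceps, and 3.01 in rectus femoris, 2.70 in tibialis anterior, 2.50 in soleus and 2.87 in gastrocnemius. Supraspinatus was lowest, by 0.33 below triceps, which exceeded the SD within regions of 0.24. Both lay below the array median, by 1.36 and 1.03, where a level cannot be told from background. Hoxd13, the 5' end of the cluster and the gene of digits and genital tubercle, was at 2.36 in masseter and 2.69 in digastric, 2.70 in trapezius, 2.62 in supraspinatus and 2.71 in triceps, and 2.98 in rectus femoris, 2.66 in tibialis anterior, 2.47 in soleus and 3.14 in gastrocnemius. For Hoxd13 the largest gap, 0.26 between rectus femoris and triceps, also exceeded the SD within regions of 0.24. For Hoxd11 it was 0.22, between the same muscles, against an SD of 0.29. Hoxd12 and Hoxd13 were below the array median in all 9 muscles, by 0.43 to 1.36 and by 0.28 to 1.01.

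Each level was also set against the median of genes of like mean level on the same array. On this scale Hoxd8 stood at 1.27 in trapezius, 0.98 in gastrocnemius and 0.56 in triceps, and at -1.19 in masseter. Hoxd9 stood at 0.92 in gastrocnemius, 0.61 in trapezius and 0.50 in triceps, and at -0.84 in supraspinatus. Hoxd10 stood at 0.75 in gastrocnemius and 0.54 in rectus femoris and at -0.49 in digastric. Gastrocnemius was thus above its like-level genes for all 3, and also for the other 5 members, by 0.12 to 0.44.

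**Figure D2:**
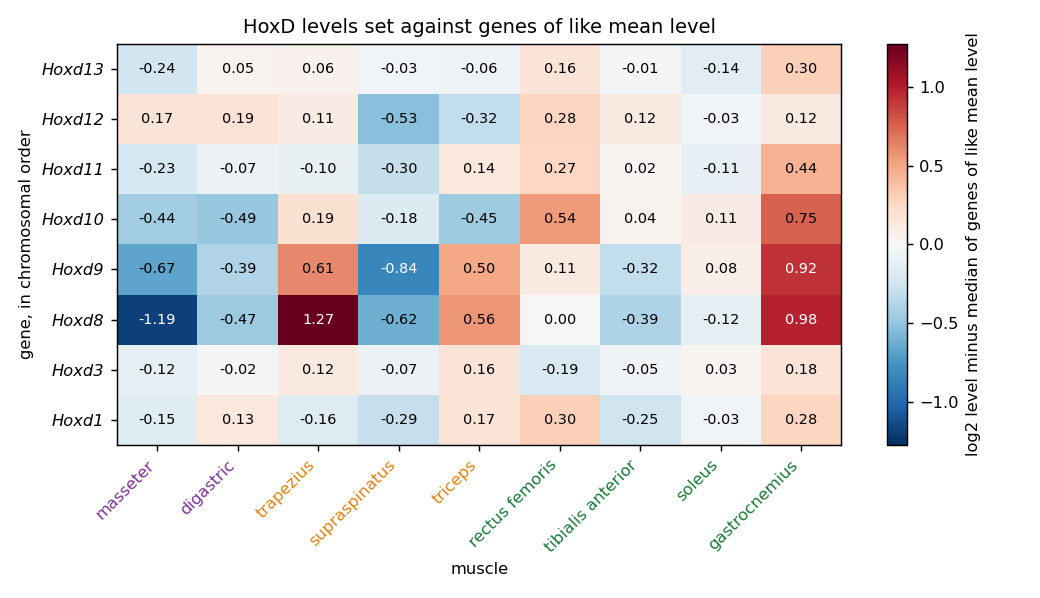
Colour and printed number give the log2 level of each HoxD gene (rows, in chromosomal order) on each array (columns) minus the median of genes of like mean level on that array. Hoxd8 and Hoxd9 are high in trapezius, triceps and gastrocnemius and low in masseter and supraspinatus, while Hoxd10 is highest in gastrocnemius (0.75) and rectus femoris (0.54).

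The first comparison asked how far HoxD levels in hindlimb muscles exceeded those in head muscles. All 8 genes had positive differences, with a median of 0.37 on the log2 scale against 0.04 over all 22180 genes, of which 55.0% were positive. In the limma test with Benjamini-Hochberg adjustment 0 of the 8 passed, where 0.00902% of all genes did (Hoxc10 and Nr4a1), and at an unadjusted p under 0.05 there was 1 of 8, Hoxd10, against 5.45% of all genes as higher and 6.49% as lower. Every hindlimb array lay above both head arrays for 4 of the 8, Hoxd3, Hoxd8, Hoxd9 and Hoxd10, against 11.4% of all genes (9.78% had every hindlimb array below), and for Hoxd3 the nearest arrays were digastric at 2.87 and tibialis anterior at 2.88.

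Hoxd10 had the clearest of these differences. Its mean was 3.64 ± 0.0056 (SD, n = 2) in head and 4.54 ± 0.36 (SD, n = 4) in hindlimb muscles, a difference of 0.90 (1.87-fold, SE 0.24, 95% interval 0.36 to 1.44, limma adjusted p = 0.36). The adjusted p ran from 0.159 to 0.828 over the alternatives, and the difference was 0.59 without the 3 arrays of narrower range. Hoxd9 differed by 0.87, from 2.53 ± 0.24 (SD, n = 2) to 3.40 ± 0.59 (SD, n = 4), with a limma adjusted p of 0.451. Of the head and hindlimb arrays, gastrocnemius alone was above the array median for Hoxd9, and its other values cannot be told from background. Hoxd8 differed by the same 0.87, from 4.27 ± 0.51 (SD, n = 2) to 5.14 ± 0.55 (SD, n = 4), with a limma adjusted p of 0.481. Among all genes these 3 differences lay at percentiles 99.3, 99.2 and 99.1. Without the 3 arrays of narrower range the Hoxd9 and Hoxd8 differences were 0.47 and 0.55, and without masseter the Hoxd8 difference was 0.51. With the trapezius moved to the head group they were 0.48 and 0.17.

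Toward both ends of the cluster the differences were smaller. Hoxd1, Hoxd3, Hoxd12 and Hoxd13 lay below the array median on all 9 arrays, and Hoxd11, like Hoxd9, was above it on 3. Place in the cluster and a level near background could not be told apart here. Hoxd11 differed by 0.44 (limma adjusted p = 0.462), or 0.16 without the arrays of narrower range. Hoxd13 differed by 0.29, Hoxd1 by 0.21, Hoxd3 by 0.19 and Hoxd12 by 0.05, with limma adjusted p from 0.576 to 0.934. Without the arrays of narrower range Hoxd13 was at 0.04, Hoxd3 at 0.10, Hoxd1 at -0.10 and Hoxd12 at -0.12, and genes of like mean level themselves differed by 0.11 to 0.14 for the 6 members other than Hoxd8 and Hoxd10. Single arrays moved these small differences as well. Without masseter Hoxd1 was at 0.046, Hoxd13 at 0.12, Hoxd3 at 0.12 and Hoxd12 at 0.035. Without digastric Hoxd1 was at 0.36 and Hoxd13 at 0.45. Without gastrocnemius Hoxd1 was at 0.10, Hoxd13 at 0.18, Hoxd3 at 0.095 and Hoxd12 at 0.019. Without rectus femoris Hoxd1 was at 0.10 and Hoxd12 at -0.025, without tibialis anterior Hoxd1 at 0.33, and without soleus Hoxd12 at 0.14.

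Shoulder and forelimb muscles were next set against the same 2 head arrays, so that the results of both comparisons share them. In the limma test 0 of the 8 HoxD genes passed, as did 0% of all genes, and at an unadjusted p under 0.05 there was 1 of 8, Hoxd8, against 3.17% of all genes as higher and 3.75% as lower. Hoxd8 had a mean of 5.47 ± 0.96 (SD, n = 3) here and of 4.27 ± 0.51 (SD, n = 2) in the head, which is 1.19 higher (2.29-fold, SE 0.51, 95% interval 0.06 to 2.32, limma adjusted p = 0.719). Supraspinatus at 4.46 lay below digastric at 4.63, so that the regions overlapped. The difference was 0.75 without trapezius, and 0.05 with the trapezius moved to the head group. Hoxd9 differed by 0.71 (limma adjusted p = 0.76), or 0.47 without either trapezius or triceps and 1.18 without supraspinatus, which lay below both head arrays. With the trapezius moved to the head group the Hoxd9 difference was 0.076. The Hoxd9 values of both head arrays and of supraspinatus lay below the array median.

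Hoxd10 was the single member with every shoulder and forelimb array above both head arrays, against 15.2% of all genes, and differed by 0.36 (SE 0.26, limma adjusted p = 0.782). It was at 0.20 without trapezius and at -0.02 with the trapezius moved to the head group. Hoxd12 was the single member with every one of these arrays below both head arrays, against 14.7% of all genes, and differed by -0.36 (SE 0.22, limma adjusted p = 0.756), or -0.20 without supraspinatus. The other 4 members differed by -0.01 (Hoxd1), 0.15 (Hoxd11), 0.15 (Hoxd13) and 0.21 (Hoxd3). Without the arrays of narrower range, of which triceps is the one in this comparison, Hoxd1 was at -0.18, Hoxd11 at 0.0064 and Hoxd3 at 0.13. Without masseter Hoxd1 was at -0.17, Hoxd11 at 0.050 and Hoxd13 at -0.014, and without digastric at 0.15, 0.24 and 0.32. Without supraspinatus Hoxd11 was at 0.26 and Hoxd1 at 0.099, and without trapezius Hoxd1 at 0.043. Of the 8 members, 6 were positive with a median of 0.18, against 55.5% of all genes with a median of 0.04.

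**Figure D3:**
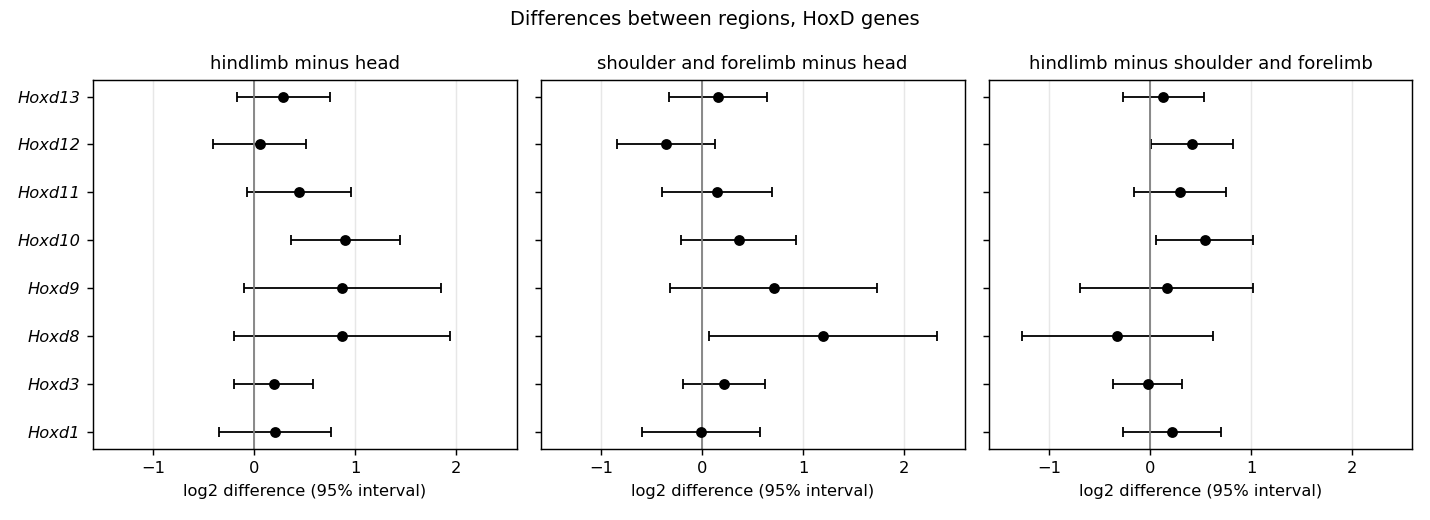
Log2 difference between regions (x axis) with its 95% interval from limma for each HoxD gene (y axis, in chromosomal order), 1 panel per comparison; the vertical line marks 0. The unadjusted interval lies above 0 for Hoxd10 in hindlimb against head (0.36 to 1.44), for Hoxd10 and Hoxd12 in hindlimb against shoulder and forelimb, and for Hoxd8 in shoulder and forelimb against head (0.06 to 2.32), and no member passed after adjustment over all genes.

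Between the limb regions, the question was whether any HoxD gene told hindlimb from shoulder and forelimb. In the limma test 0 of the 8 passed, where 0.00451% of all genes did (Hoxc10), and at an unadjusted p under 0.05 there were 2 of 8, Hoxd10 and Hoxd12, against 1.84% of all genes as higher and 1.81% as lower. The arrays of these regions overlapped for all 8, where 2.32% of all genes had the hindlimb arrays wholly above and 2.3% wholly below. Hoxd10 averaged 4.54 ± 0.36 (SD, n = 4) in hindlimb and 4.001 ± 0.30 (SD, n = 3) in shoulder and forelimb muscles, which is 0.54 higher (SE 0.22, 95% interval 0.06 to 1.02, limma adjusted p = 1). Without the arrays of narrower range the Hoxd10 difference was 0.09. Hoxd12 differed by 0.41 (SE 0.18, limma adjusted p = 1), or 0.25 without supraspinatus and likewise 0.25 without the arrays of narrower range.

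For Hoxd8 and Hoxd9 the difference between these regions was within the spread of their arrays. Hoxd8 differed by -0.33 (95% interval -1.27 to 0.62), from -0.83 without supraspinatus to 0.12 without trapezius. It was -0.17 without tibialis anterior, -0.59 without gastrocnemius and -0.58 without the arrays of narrower range. Hoxd9 differed by 0.16 (95% interval -0.69 to 1.02), with -0.31 without supraspinatus, -0.10 without gastrocnemius and -0.003 without the arrays of narrower range. It was 0.40 without either trapezius or triceps and 0.36 without tibialis anterior. Hoxd11 differed by 0.30, Hoxd1 by 0.22, Hoxd13 by 0.13 and Hoxd3 by -0.02, each at a limma adjusted p of 1. Without the arrays of narrower range they were at 0.16, 0.078, -0.098 and -0.037. Without gastrocnemius Hoxd11 was at 0.18, Hoxd1 at 0.12, Hoxd13 at 0.023 and Hoxd3 at -0.12. Without supraspinatus Hoxd11 was at 0.19, Hoxd1 at 0.11 and Hoxd3 at -0.11. Without rectus femoris Hoxd1 was at 0.12, Hoxd13 at 0.078 and Hoxd3 at 0.0088. Hoxd1 was at 0.39 without triceps and 0.35 without tibialis anterior, Hoxd13 at 0.25 without soleus, and Hoxd3 at 0.055 without triceps, 0.012 without tibialis anterior and 0.0012 without soleus. Of the 8, 6 were positive with a median of 0.19, against 48.2% of all genes with a median of -0.01.

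The members were also compared with each other over the 9 arrays, which share their normalization and value range. All 28 pairs had a positive Pearson r, with a median of 0.63 and a range from 0.09 to 0.90, while the median r of a member with its like-level genes was 0.25, and 68.0% of those were positive. On the 6 arrays of wider range 25 of the 28 pairs were positive, with a median of 0.43 against 0.04 for like-level genes. Hoxd8 and Hoxd9 had r = 0.90 and Spearman's rho = 0.95 over 9 arrays, 0.94 over the 6 arrays of wider range, and 0.97 without masseter and trapezius, the arrays farthest from the Hoxd8 median. Hoxd3 had rho = 0.95 with both Hoxd8 and Hoxd9 over 9 arrays, though its own values spanned 0.54. Hoxd8 and Hoxd10 had r = 0.52 and rho = 0.70 over 9 arrays, 0.71 over the 6 of wider range, and 0.44 without masseter and trapezius. Hoxd9 and Hoxd10 had r = 0.64 and rho = 0.72, and 0.73 over the 6 of wider range. At the 5' end Hoxd11 and Hoxd13 had r = 0.90 over 9 arrays and 0.56 over the 6 of wider range, and Hoxd12 had r of 0.56 or less with each other member.

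**Figure D4:**
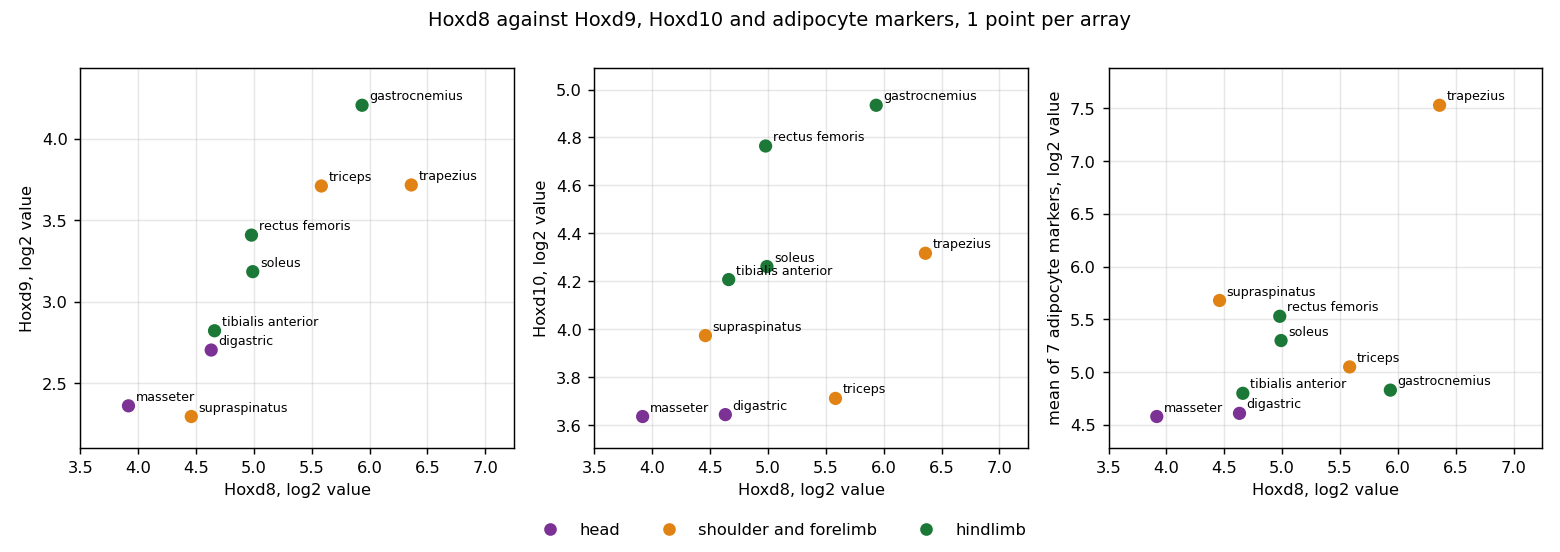
Hoxd8 log2 value (x axis) against the log2 value of Hoxd9, of Hoxd10 and the mean of 7 adipocyte markers (y axes), 1 point per array, coloured by region. Hoxd9 has r = 0.90 with Hoxd8 and Hoxd10 r = 0.52, and the adipocyte markers are high in trapezius alone (7.53, with 5.68 as the next).

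The genes that followed Hoxd8 and Hoxd9 most closely were taken from 3624 genes for Hoxd8 and 3625 for Hoxd9, those at or above the median gene with a range of at least 1 log2 unit. For Hoxd8 they were Cebpa, a transcription factor of adipocytes and myeloid cells (r = 0.92 over 9 arrays), Tspo, an outer mitochondrial membrane protein (0.90), Irf4 (0.87), the carbonic anhydrase gene Car13 (0.87) and Hsd17b12, an enzyme of fatty acid elongation (0.86). All 5 were highest in trapezius, and without it r lay between 0.78 and 0.88. For Hoxd9 the first was Arhgap45 (0.93), then Hoxd8 itself (0.90), then the matrix protein gene Vwa1, the mechanically gated channel gene Piezo1 and the tight junction gene Lsr (0.87 each). Over the 6 arrays of wider range these were 0.93, 0.94, 0.88, 0.95 and 0.74. Arhgap45 and Lsr were highest in gastrocnemius and Vwa1 in triceps, both arrays of narrower range. The highest of so many r values over 9 arrays are large by selection, and a relation to Hoxd8 or Hoxd9 was not tested.

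Markers of other cell types moved with some of these levels. The mean of 7 measured adipocyte markers of 8 listed was 7.53 in trapezius, where Hoxd8 was highest, and from 4.58 to 5.68 on the other 8 arrays, with Adipoq at 6.67 and Plin1 at 7.24 in trapezius against at most 4.39 and 5.24 elsewhere. Its r with Hoxd8 was 0.61 over 9 arrays and 0.11 without trapezius, and gastrocnemius, second for Hoxd8, had an adipocyte mean of 4.83. The mean of 9 myeloid markers was highest in triceps (6.35, against 4.89 to 5.70 on the other 8 arrays) and had r = 0.55 with Hoxd8 and 0.54 with Hoxd9. The mean of 6 measured keratinocyte markers of 7 listed had a higher r than these lists, 0.77 with Hoxd8 and 0.80 with Hoxd9, or 0.70 and 0.78 without trapezius, over a span of 3.22 in supraspinatus to 3.46 in triceps, near the array median. The mean of 12 satellite cell markers, genes of the muscle stem cells, was 4.84 to 5.06 in head, 5.08 to 5.18 in shoulder and forelimb and 5.20 to 5.40 in hindlimb muscles, and had r = 0.82 with Hoxd10. The mean of 12 fibroblast markers was 7.80 to 8.18, 8.09 to 8.59 and 8.20 to 8.53 in the same order of regions. Its r was 0.35 with Hoxd8, 0.46 with Hoxd9, 0.31 with Hoxd10 and 0.64 with Hoxd11. Without trapezius these were 0.68, 0.59, 0.35 and 0.63. The r of the satellite cell mean with Hoxd8 was 0.44 over 9 arrays and 0.74 without trapezius. The mean of 7 measured salivary gland markers of 8 listed was 3.36 to 3.93 in head and 2.78 to 3.06 in all other muscles. Its members were not alike. Klk1 had a head mean of 4.09 with an SD of 4.51 (n = 2). Of the 7, 2 were higher in hindlimb than in head muscles, Prol1 and Aqp5. The mean of 10 endothelial markers was 6.76 to 7.01 in head and 5.88 to 6.88 elsewhere. Both means moved with region, the endothelial one with overlap since soleus (6.88) lay above masseter (6.76). The part of these cell types in the HoxD values was not tested.

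Of the HoxA, HoxB and HoxC paralogues of the members, 15 of 17 listed were measured. In hindlimb against head muscles 15 of 15 had positive differences (median 0.51), against 55% of all genes (median 0.04). Only for Hoxb8 and Hoxb1 was the mean of tibialis anterior and soleus, the hindlimb arrays of wider range, below the head mean. Hoxb8 was at 2.81 and 3.10 on them, and at 3.29 in masseter and 3.15 in digastric. In the limma test 1 passed, Hoxc10, at 4.001 (limma adjusted p = 0.00249), beside 0.90 for Hoxd10 and 0.88 for Hoxa10. In hindlimb against shoulder and forelimb muscles 11 of 15 were positive, against 48.2% of all genes. Hoxc10 again passed, at 3.60 (limma adjusted p = 0.00206), beside 0.54 for Hoxd10 and 0.41 for Hoxa10. There the regions did not overlap, with hindlimb higher, for 4 of the 15 paralogues, against 2.32% of all genes. These were Hoxc8 (0.80), Hoxc9 (1.24), Hoxc10 and Hoxc11 (0.95), whose HoxD counterparts were at -0.33, 0.16, 0.54 and 0.30 with overlap. Whether the HoxC and HoxD differences differ was not tested.

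Genes beside the cluster had mostly negative differences in hindlimb against head muscles over all arrays, but not without the arrays of narrower range. Of 12 measured neighbours of 13 listed, 4 were positive and 8 negative there (median -0.33), where 55% of all genes were positive. In the 3 comparisons 0 passed the limma test. At an unadjusted p under 0.05 there were 2 (Evx2 and Lnpk) in this comparison, against 5.45% of all genes as higher and 6.49% as lower. There was 1 (Lnpk) in shoulder and forelimb against head muscles, against 3.17% as higher and 3.75% as lower. Between the limb regions there were 0, against 1.84% and 1.81%. In hindlimb against head muscles 2 of the 12 lay wholly above and 2 wholly below, against 11.4% and 9.78% of all genes. Evx2, the homeobox gene next to Hoxd13, differed by 0.46 (3.32 to 3.79), with every hindlimb array above both head arrays. Lnpk, beyond Evx2, differed by -0.74, from 6.24 to 5.49, with every hindlimb array below both head arrays. Mtx2, beyond Hoxd1 at the other end, differed by -0.65, with overlap and a hindlimb SD of 1.14. Its hindlimb values were 4.61 in rectus femoris and 5.53 in gastrocnemius, both of narrower range. They were 6.74 in tibialis anterior and 7.09 in soleus, above the head mean of 6.64. For Chn1 and Chrna1 as well, the mean of tibialis anterior and soleus was above the head mean, so that their sign turned. Chn1 was at 3.21 and 3.40 on these arrays, with a head mean of 3.13. Lnpk, Atf2, Atp5g3, Hnrnpa3 and Nfe2l2 stayed negative there, and the 4 positive neighbours stayed positive. The antisense transcript gene Hoxd3os1 differed by 0.42 between shoulder and forelimb and head muscles. Whether its probes separate the strands was not tested, so its signal may include that of the opposite strand.

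Partners and regulators of Hox proteins were measured as well. Of 8 measured cofactor genes of 9 listed (Meis, Pbx and Pknox), which bind DNA jointly with Hox proteins, 0 passed the limma test in the 3 comparisons, with 3, 5 and 3 positive in hindlimb against head, shoulder and forelimb against head, and hindlimb against shoulder and forelimb muscles. At an unadjusted p under 0.05 there was Pbx2 alone, at -0.46 in the last, where 1.81% of all genes were lower. Of 19 measured Polycomb and trithorax group genes of 20 listed, which keep Hox genes silent or active, 0 passed and 9, 10 and 8 were positive in the same order. Of 16 limb patterning genes 0 passed and 12, 10 and 11 were positive, where 55%, 55.5% and 48.2% of all genes were. Over all genes, an unadjusted p under 0.05 was reached by 5.45% as higher and 6.49% as lower in the first comparison. These shares were 3.17% and 3.75% in the second and 1.84% and 1.81% in the third. At that p the chromatin list and the limb list each had 4 genes in the first comparison, 2 in the second and 0 in the third. In hindlimb against head muscles the limb genes among them were Tbx4 (0.44) and Pitx1 (0.68), which specify the hindlimb bud, Tbx15 (-1.35) and Lbx1 (1.91), a gene of migrating limb muscle precursors. The chromatin genes were Eed (-0.68) and Suz12 (-0.66), core subunits of Polycomb repressive complex 2, its partner Jarid2 (-0.65), and Pcgf2 (0.59) of Polycomb repressive complex 1. Their limma adjusted p ran from 0.219 to 0.412.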

How the data were processed

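Total RNA of 9 muscles was labelled with biotin and read on 1 array each, per the labels' protocols. The authors deposited 1 log2 value per probe set and array, made with GCRMA per the submitters' processing notes (no version), so that background correction by probe sequence and between-array normalization precede all values here. That the scale is log2 was inferred from the span of the table, 0.12 to 13.49. Sorted values differed by up to 0.39 between arrays. No genome build of the array is named, and printed coordinates are those of the RefSeq sequences.

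Of 41345 probe sets 23521 had 1 gene, with symbols updated through Entrez identifiers for 23328. Where a gene had several, the one with the highest mean was used. One fit over 9 arrays with a mean per region was made in limma 3.58.1 (R 4.3.3; lmFit, eBayes) for 3 two-sided contrasts, with Benjamini-Hochberg adjustment over 22180 genes, a threshold of 0.05 and 6 residual degrees of freedom. Every adjusted p is from limma. The procedure was tested on simulated data. Alternatives were median centring, quantile normalization, a filter on dim genes (which 2 members passed), averaged probe sets, limma's trend and robust options, only the regions compared, the trapezius with the head muscles, no arrays of narrower range, and each array left out. Named besides the members were the 5 genes most like each of the 2 members of largest range, with predicted genes, clone names and RNA genes left out, and members of fixed lists. Members and lists were chosen with earlier results of these data known. The comparison with genes of like level and the values without trapezius were added after seeing the data.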

Additional observations from a re-analysis of the deposited data

Results flagged for a closer look

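Hoxd3 in gastrocnemius stood apart from the other hindlimb arrays. It was at 3.27, against 2.88 in tibialis anterior, 2.89 in rectus femoris and 2.92 in soleus, a gap of 0.918 of the range of the 4 arrays, above Dixon's critical value at 95% for a group of 4. Of the 8 HoxD genes in hindlimb muscles 1 was so marked, and chance marks about 1 in 20 groups. The Hoxd3 value in gastrocnemius was below the array median by 0.15.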

How the results depend on the processing

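No HoxD gene passed the limma threshold in any of the 3 comparisons under any alternative, and the lowest adjusted p was 0.159, for Hoxd10 in hindlimb against head muscles without soleus. The count of all genes past the threshold in that comparison was 2, and 1 with median centring, with the variance trend and robust fit, with only the 2 regions compared, with the trapezius counted with the head muscles and without the arrays of narrower range. With 1 array left out it ran from 0 (without masseter) to 19 (without soleus). In shoulder and forelimb against head muscles it ran from 0 to 4 (without digastric). Without masseter or digastric the head group is 1 array, assumed to vary like the other regions.

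Signs turned as follows, and the cause was not tested. In hindlimb against head muscles Hoxd1 and Hoxd12 were at -0.10 and -0.12 without the arrays of narrower range, and Hoxd12 at -0.057 against genes of like level and from -0.025 to 0.14 with 1 array left out. In hindlimb against shoulder and forelimb muscles Hoxd8 was at 0.12 with the trapezius counted with the head, and Hoxd9 and Hoxd13 at -0.003 and -0.098 without the arrays of narrower range. With 1 array left out Hoxd8 ran from -0.83 to 0.12, Hoxd9 from -0.31 to 0.40 and Hoxd3 from -0.12 to 0.055. In shoulder and forelimb against head muscles Hoxd1 and Hoxd10 were at 0.084 and -0.023 with the trapezius counted with the head, and with 1 array left out Hoxd1 ran from -0.18 to 0.15 and Hoxd13 from -0.014 to 0.32. The ranges over the 9 arrays moved by less than the SD within regions under median centring, quantile normalization and averaged probe sets. No paired analysis was possible because the labels do not say which arrays come from the same animal.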

Other observations

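Further probe sets of the cluster measured no member alone, and were looked at after the values of the members were seen. The probe set annotated to both Hoxd4 and Hoxd3 was at 4.02 in masseter and 3.77 in digastric, 4.39 in trapezius, 4.76 in supraspinatus and 4.22 in triceps, and 4.26 in rectus femoris, 3.65 in tibialis anterior, 3.80 in soleus and 3.93 in gastrocnemius. Supraspinatus, where Hoxd8 and Hoxd9 were low, was highest here. The probe set of Mir10b, a microRNA gene within the cluster, was at 1.03 in digastric to 1.85 in gastrocnemius, with a median of 1.34, below the array median in all 9 muscles.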
